A study of Homo sapiens with 47 samples.

Results

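The genes described are 9 transcription factor genes that are used as lineage factors of the endometrial epithelium (SOX17, PAX8, PAX2, FOXA1, FOXA2, GATA2, GATA3, SOX9 and EMX2). They were chosen by name, with earlier results of these data known, and are 9 of the 64486 genes in the annotation. For each of them, every peak within 2 kb of an annotated transcription start, and every peak inside the gene body plus 20 kb on both sides, was taken from 47 lists of ChIP-seq peaks.

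The lists came from Ishikawa cells, a line of human endometrial carcinoma, kept in hormone-depleted medium without added estrogen. The cells were transfected with plasmids for dCas9-VP16(10x), a catalytically dead Cas9 fused to copies of the VP16 activation domain, or dCas9-p300(core), dead Cas9 fused to the acetyltransferase core of p300, together with a pool of guide RNAs. The pools were Pool 1, Pool 2 and Pool 3, each aimed at a different set of estrogen receptor-binding sites (ERBSs) near MMP17, CISH, FHL2 and HES2, an Adjacent pool for regions beside those sites, and a control pool for the IL1RN promoter. H3K27ac and RNA polymerase II (RNAPII) were each profiled in 20 libraries, 10 for each construct, with 2 replicates for every combination of construct and pool, and the HA tag of dCas9 in 7 libraries (5 of dCas9-VP16(10x), 2 of dCas9-p300(core) with all ERBS guides).

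All libraries therefore carried a fusion, guide RNAs and drug selection, and no library of untransfected cells was analysed here. The cells were transiently transfected pools of 1 cancer line, so a level is a mean over cells that may hold different amounts of each plasmid. No guide RNA was aimed at any of the 9 genes. The nearest target was the IL1RN gene, whose annotated body ends 82.0 kb from that of PAX8 on chromosome 2. The next nearest was FHL2, 7.92 Mb from PAX8. The labels do not say whether replicates came from separate cultures, so p-values measure only the spread between these libraries, which may be technical.

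SOX17, a Sry-box factor, and PAX8, a paired-box factor, are Müllerian lineage factors that are retained in many endometrial and ovarian carcinomas. FOXA1, FOXA2, GATA2 and GATA3 are known as pioneer factors that open chromatin for steroid receptors, with FOXA2 marking uterine glands and GATA2 needed for progesterone response. PAX2 and EMX2 act in the Wolffian and Müllerian ducts of the embryo, and SOX9 is a glandular progenitor factor. H3K27ac marks active promoters and enhancers, and RNAPII gathers at the starts and along the bodies of transcribed genes. A peak of either is evidence of an active or poised locus but does not measure RNA or protein.

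The reference sequences at which the main contrasts of the data fall are shown first. They are 250 bases of hg19, 5′ to 3′ on the strand of the gene, or on the plus strand for sites away from a start. Capitals mark each exact match, on either strand, to any of 7 short motifs, which were TGTTTAC for forkhead, AGATAA for GATA factors, ACAATGG for SOX, AGGTCA for the estrogen response element half-site, GGGCGG for the GC box, TATAAA for the TATA box and CCAAT for the CCAAT box. For promoters, the bases lie directly before the outermost start of the group of starts nearest to the RNAPII summit, or before the outermost start of FOXA2, which had no peak. PAX8 is shown because its locus differed most between constructs, EMX2 because it held RNAPII in every library, and GATA3 and FOXA2 because they held it in few or none.
PAX8 promoter, chr2:114036499-114036748, minus strand: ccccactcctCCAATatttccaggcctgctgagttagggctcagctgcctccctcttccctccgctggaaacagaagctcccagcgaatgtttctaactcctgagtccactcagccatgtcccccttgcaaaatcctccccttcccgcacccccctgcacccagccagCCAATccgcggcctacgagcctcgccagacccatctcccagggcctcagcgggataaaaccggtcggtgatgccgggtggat
EMX2 promoter, chr10:119301706-119301955, plus strand: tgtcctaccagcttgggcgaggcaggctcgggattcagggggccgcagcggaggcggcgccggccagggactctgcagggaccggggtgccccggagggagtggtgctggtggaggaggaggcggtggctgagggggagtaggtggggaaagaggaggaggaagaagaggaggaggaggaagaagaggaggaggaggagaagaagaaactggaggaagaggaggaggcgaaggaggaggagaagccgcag
GATA3 promoter, chr10:8095317-8095566, plus strand: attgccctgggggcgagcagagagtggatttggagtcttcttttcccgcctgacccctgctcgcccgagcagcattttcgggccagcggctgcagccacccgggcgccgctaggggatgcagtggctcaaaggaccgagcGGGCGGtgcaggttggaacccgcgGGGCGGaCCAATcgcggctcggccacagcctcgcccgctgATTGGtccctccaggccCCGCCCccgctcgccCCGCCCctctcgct
FOXA2 promoter, chr20:22566094-22566343, minus strand: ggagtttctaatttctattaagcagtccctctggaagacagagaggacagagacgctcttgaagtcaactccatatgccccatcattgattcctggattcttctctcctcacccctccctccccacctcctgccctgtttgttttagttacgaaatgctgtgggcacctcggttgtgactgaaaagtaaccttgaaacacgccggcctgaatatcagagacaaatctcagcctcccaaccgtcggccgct
PAX8 downstream site, chr2:113970532-113970781, plus strand: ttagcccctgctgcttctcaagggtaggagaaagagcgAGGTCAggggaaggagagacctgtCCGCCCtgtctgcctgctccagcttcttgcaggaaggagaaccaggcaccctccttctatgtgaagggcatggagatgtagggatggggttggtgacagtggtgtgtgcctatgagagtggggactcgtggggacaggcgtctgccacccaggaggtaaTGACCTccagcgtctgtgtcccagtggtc
EMX2 downstream site, chr10:119311520-119311769, plus strand: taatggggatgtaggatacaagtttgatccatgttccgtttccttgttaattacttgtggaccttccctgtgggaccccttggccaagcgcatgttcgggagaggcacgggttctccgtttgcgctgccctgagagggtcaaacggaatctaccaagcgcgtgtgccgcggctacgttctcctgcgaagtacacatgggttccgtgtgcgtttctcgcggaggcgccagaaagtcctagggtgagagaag

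The EMX2 window lies in an exon of the antisense gene EMX2OS and the GATA3 window in an exon of GATA3-AS1. The PAX8 downstream site lies in an intron of PAX8-AS1, and the EMX2 downstream site lies outside annotated genes. The GATA3 window held 4 GC box and 2 CCAAT matches and the PAX8 window 2 CCAAT matches, while the EMX2 and FOXA2 windows held no match to any of the 7 motifs. A GC box match was present in 59.1% and a CCAAT match in 34.3% of 19874 windows of the same length before protein-coding starts. The PAX8 downstream site held 2 estrogen response element half-sites, a match found in 18.5% of 12168 windows at RNAPII summits away from starts, and 1 GC box, found in 15.7% of them. CpG dinucleotides numbered 25 at GATA3, 12 at EMX2, 11 at PAX8 and 8 at FOXA2, against a median of 18 over the promoter windows. They numbered 18 at the EMX2 downstream site and 5 at the PAX8 downstream site, against a median of 4. Matching letters are a description of these windows and were not tested for binding.

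The lists differed widely in size. The H3K27ac lists held 5322 to 32052 peaks (median 25025) for dCas9-VP16(10x) and 1805 to 24280 (median 6143) for dCas9-p300(core), so weaker peaks could be listed in more of the former. The RNAPII lists held 16041 to 35592 and 18809 to 40757 peaks, and the HA lists 141 to 30740. Read depth was not given in the lists and is unknown. The peak names of many libraries began with a number, called a run number or run here, although the labels do not say what it stands for. It was the same for all 10 dCas9-p300(core) RNAPII libraries, another for 7 of the dCas9-VP16(10x) RNAPII libraries and absent for the other 3. Construct and run number, with whatever batch it may mark, therefore cannot be told apart for RNAPII. For H3K27ac, 5 dCas9-VP16(10x) and 6 dCas9-p300(core) libraries shared a run number. The H3K27ac library labelled dCas9-VP16(10x) Pool 1 replicate 2 had peak names with the letter that marks dCas9-p300(core) libraries elsewhere, and no H3K27ac call of a member changed without it, while the dCas9-VP16(10x) Adjacent replicate 1 library of H3K27ac is labelled with the IL1RN guides beside the Adjacent ones and was kept in the Adjacent group.

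The cells carried epithelial marks at their promoters. All 6 epithelial markers examined (EPCAM, CDH1, KRT8, KRT18, MUC1 and CLDN4) had RNAPII promoter peaks in all 20 libraries and H3K27ac in at least 10. None of 4 leukocyte markers reached 10 libraries for either antibody. Of 8 stromal markers, RNAPII was present in at least 10 libraries for 4 (TWIST1, COL1A1, ZEB1 and HAND2) and H3K27ac for 3. For each antibody 3 of the 8 had no peak in any library, DCN and LUM among them. The endothelial markers that could be found by name had none.

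The 9 genes fell into 3 classes by where their promoters held peaks. PAX8 and EMX2 held H3K27ac and RNAPII in every library of both antibodies. SOX17, GATA2, SOX9 and FOXA1 held RNAPII in 18 to 20 of 20 libraries and H3K27ac in 11 to 16. PAX2, GATA3 and FOXA2 held neither in most libraries, and FOXA2 held neither in any.

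For H3K27ac, the promoters of PAX8 and EMX2 had a peak in 20 of 20 libraries, GATA2 in 16, SOX17 and FOXA1 in 13 each, SOX9 in 11, PAX2 in 1, and FOXA2 and GATA3 in 0. Thus 2 of 9 had a peak in every library, against 2.40% of 20176 protein-coding genes, and 6 of 9 in at least 10 libraries, against 48.2%. For RNAPII, SOX17, PAX8, GATA2, SOX9 and EMX2 had a peak in all 20 libraries, FOXA1 in 18, GATA3 in 5, PAX2 in 4 and FOXA2 in 0. The corresponding counts were 5 of 9 in every library, against 43.9% of protein-coding genes, and 6 of 9 in at least 10, against 63.0%. The RNAPII share at 10 libraries was thus close to that of protein-coding genes in general.

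Absence followed list size for H3K27ac at SOX17, FOXA1 and GATA2. SOX17 and FOXA1 had a peak in every list of 10532 or more peaks and in no list of 6687 or fewer. GATA2 had one in every list of 5322 or more and in none of 4346 or fewer. SOX9 was less clear-cut, with a peak in a list of 16457 and none in a list of 19860. The single PAX2 peak, with an enrichment of 6.42 over the caller's background, stood in the largest dCas9-p300(core) list, of 24280 peaks. FOXA2 had no peak of any antibody within its body or 20 kb on either side in any of the 47 lists.

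**Figure D1:**
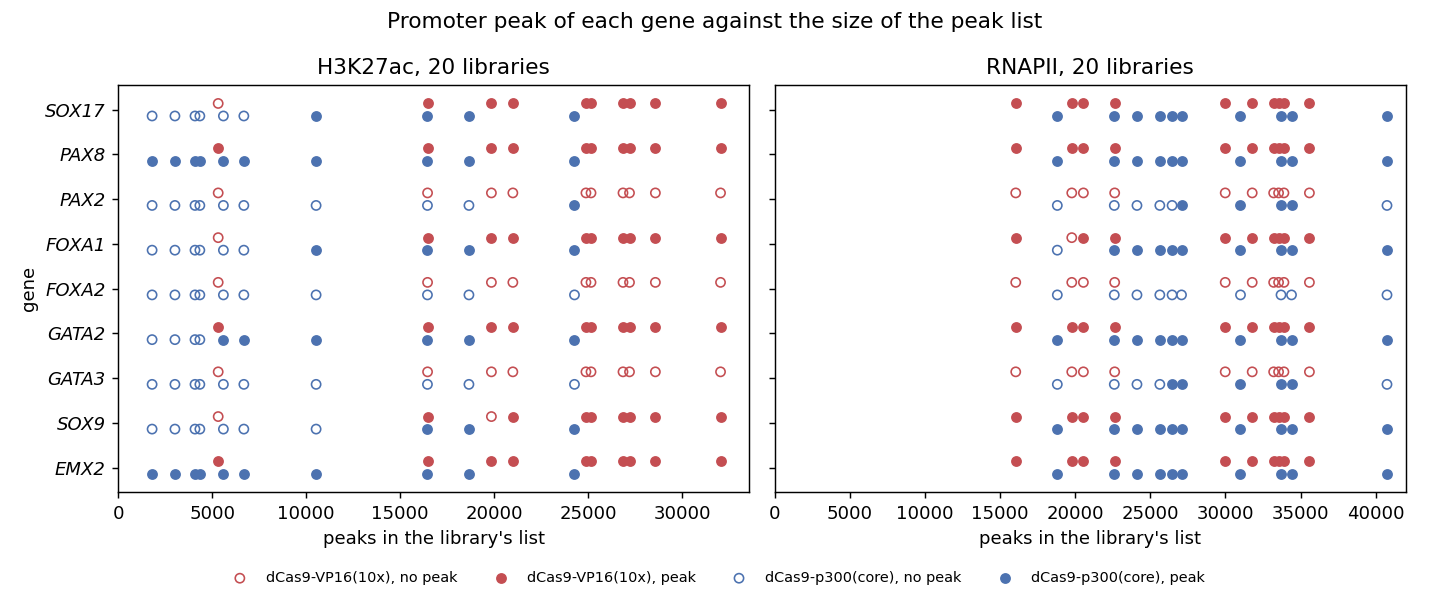
Presence of a promoter peak of each of the 9 genes in each H3K27ac and RNAPII library, with the libraries ordered by the number of peaks in their list. PAX8 and EMX2 were filled throughout in both panels, SOX17 and FOXA1 lost their H3K27ac peak only in lists of 6687 or fewer peaks, and FOXA2 was empty.

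By construct, SOX17 and FOXA1 each had an H3K27ac promoter peak in 9 of 10 dCas9-VP16(10x) and 4 of 10 dCas9-p300(core) libraries, SOX9 in 8 and 3, and GATA2 in 10 and 6. None of these differences passed Fisher's exact test (two-sided; Benjamini-Hochberg adjusted p = 0.156 for SOX17 and FOXA1, 0.166 for SOX9 and 0.182 for GATA2), and 0 of the 9 genes were called, against 0.302% of 20833 genes tested. No member had an unadjusted p under 0.05 there, and the lowest was 0.0573. The list of dCas9-VP16(10x) Pool 3 replicate 1, with 5322 peaks, was the shortest of its construct. Without that library, SOX17 and FOXA1 passed (adjusted p = 0.0324 by Fisher's exact test). Over the fits that each left out 1 library, the number of all genes called ranged from 63 to 6950. Passing in this fit therefore need not be particular to SOX17 and FOXA1.

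GATA3 and PAX2 showed the reverse for RNAPII. GATA3 had a promoter peak in 0 of 10 dCas9-VP16(10x) and 5 of 10 dCas9-p300(core) libraries, and PAX2 in 0 and 4. Those peaks were weak, with enrichment of 7.06 to 13.2 for GATA3 and 8.66 to 9.35 for PAX2. Neither gene passed after adjustment (Fisher's exact test, two-sided, p = 0.0325 and 0.0867, adjusted p = 0.174 and 0.327), where 2.65% of 11045 genes tested were called. All 4 libraries with a PAX2 peak, which were Adjacent replicates 1 and 2, IL1RN replicate 2 and Pool 1 replicate 1, also had a GATA3 peak.

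To compare levels across libraries of unequal depth, each enrichment was divided by the median enrichment, in the same library, of the promoters with a peak in every library of the antibody (718 for H3K27ac, 12190 for RNAPII). On this scale 1 is a typical constantly marked promoter. SOX17 had the highest RNAPII level of the 9 genes. Its scaled enrichment was 1.61 at the lowest, 2.95 at the median and 3.41 at the highest over the 10 dCas9-VP16(10x) libraries, and 2.39, 2.98 and 3.22 over the 10 dCas9-p300(core) libraries. At the median it stood at the 99.7th percentile of all promoters with an RNAPII peak.

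PAX8 was next, at 1.13, 1.75 and 2.08 with dCas9-VP16(10x) and 0.860, 1.16 and 2.08 with dCas9-p300(core), and a median percentile of 91.4. GATA2, EMX2 and FOXA1 lay near a typical promoter, with median percentiles of 56.7, 52.8 and 55.3. SOX9 was lower, at 0.577, 0.701 and 0.949 with dCas9-VP16(10x) and 0.483, 0.602 and 0.674 with dCas9-p300(core), a percentile of 27.2. GATA3 and PAX2, where present, lay at the 8.62 and 5.40 percentiles.

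Of neighbours in this order, SOX17 exceeded PAX8 by 0.92 ± 0.48 on the log2 scale (SD over 20 libraries, higher in 19), and FOXA1 exceeded SOX9 by 0.42 ± 0.30 (18 libraries, higher in 16). PAX8 and GATA2 differed by 0.63 ± 0.68, GATA2 and EMX2 by 0.09 ± 0.57, and EMX2 and FOXA1 by 0.04 ± 0.31, all within their spread over libraries.

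**Figure D2:**
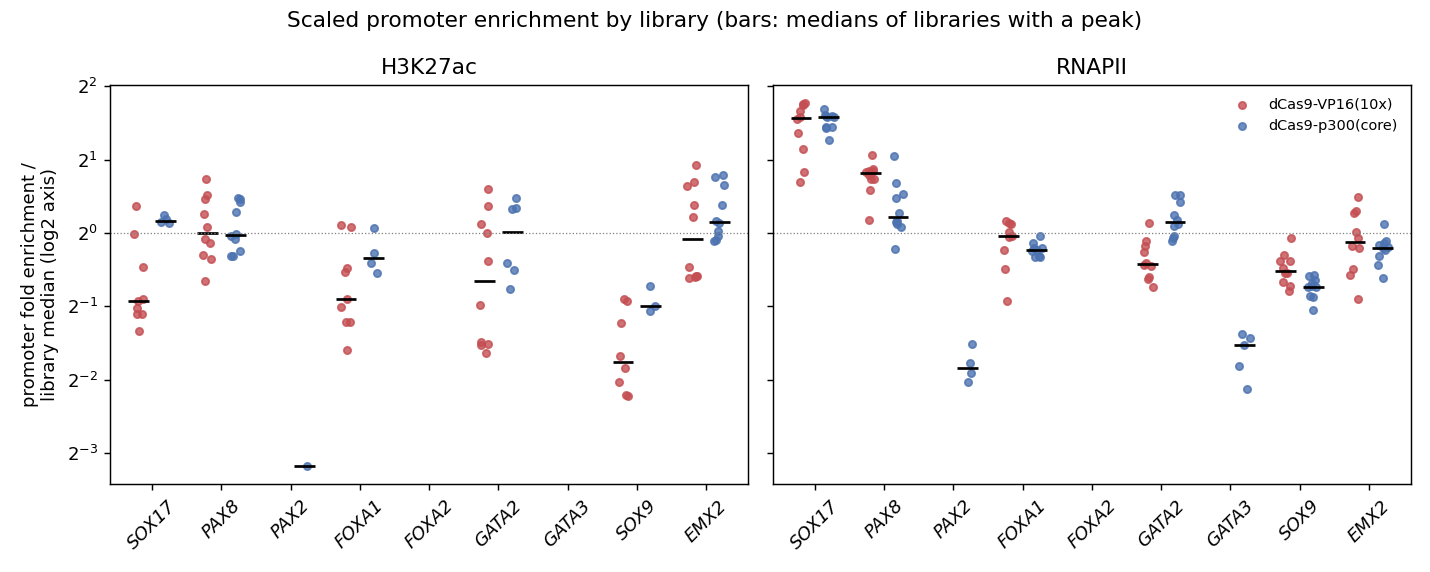
Scaled promoter enrichment of each gene in each H3K27ac and RNAPII library on a log axis, with the constructs in separate colours and the median of each construct as a bar. A value of 1 is the median of promoters with a peak in every library, and SOX17 stood highest for RNAPII while SOX9 stood lowest of the genes with a peak in most libraries.

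The order for H3K27ac was different. EMX2 and PAX8, the genes with a peak in every library, had scaled enrichment of 0.95 and 1.00 at the median with dCas9-VP16(10x) and 1.11 and 0.98 with dCas9-p300(core). SOX17, first for RNAPII, had a median of 0.53 over 9 dCas9-VP16(10x) libraries and 1.12 over the 4 dCas9-p300(core) libraries with a peak. GATA2 had 0.63 and 1.01 over 10 and 6 libraries, and FOXA1 0.54 and 0.79 over 9 and 4. These medians leave out libraries without a peak, which for dCas9-p300(core) were those with the short lists. EMX2 exceeded PAX8 by only 0.08 ± 0.39 (SD, 20 libraries), and the one step larger than its spread was that from FOXA1 to SOX9, 0.79 ± 0.38 over 11 libraries, higher in 11.

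The raw enrichment behind these values rose and fell with the library. PAX8 had an H3K27ac enrichment of 11.1, 34.4 and 121 (lowest, median, highest) with dCas9-VP16(10x) and 8.98, 12.1 and 80.1 with dCas9-p300(core), and EMX2 had 11.6, 29.8 and 137, and 8.82, 12.9 and 97.1. Both genes therefore moved over about the same range.

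The summits lay at the starts for RNAPII and downstream of them for H3K27ac. Relative to the nearest annotated start, positive values being downstream, the median RNAPII summit was at 10.5 bp for PAX8, 19.5 bp for GATA2, 32.5 bp for EMX2, 42 bp for SOX9 and 54 bp for SOX17, and at -56.5 bp for FOXA1. The median H3K27ac summit lay at 156.5 bp for PAX8, 172.5 bp for GATA2, 284 bp for SOX9, 484 bp for SOX17 and 570.5 bp for EMX2. ChIP-seq reads carry no strand of transcription, and the window of PAX8 is shared with PAX8-AS1 (18 bp between starts), that of GATA3 with GATA3-AS1 (120 bp), EMX2 with EMX2OS (126 bp), GATA2 with GATA2-AS1 (178 bp), SOX9 with SOX9-AS1 (210 bp) and FOXA1 with TTC6 (380 bp). Peaks there cannot be assigned to one or the other gene.

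The constructs were compared next, since the same 5 guide pools were delivered with each. RNAPII at the PAX8 and SOX9 promoters was higher, and at the GATA2 promoter lower, with dCas9-VP16(10x) than with dCas9-p300(core), relative to constantly marked promoters. SOX17, FOXA1 and EMX2 did not pass the test. PAX8 differed by a log2 of 0.41 (SE 0.13, limma, adjusted p = 0.0245), SOX9 by 0.26 (SE 0.09, adjusted p = 0.0478) and GATA2 by -0.55 (SE 0.12, adjusted p = 0.00179), with n = 10 libraries of each construct. Of the 17385 promoters tested, 26.7% were called, 15.4% higher and 11.2% lower with dCas9-VP16(10x), against 3 of the 6 members that could be tested. With quantile normalization the split over all promoters turned from 2683 higher and 1951 lower to 1965 higher and 2358 lower.

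The GATA2 values behind this were 0.601, 0.747 and 1.103 with dCas9-VP16(10x) and 0.927, 1.11 and 1.43 with dCas9-p300(core), so that only the highest values of the former reached the range of the latter. For SOX9 and PAX8 the ranges overlapped. The SOX9 call was lost when any 1 of 14 of the 20 libraries was left out (adjusted p 0.0564 to 0.0903, limma), and held only without dCas9-VP16(10x) Adjacent replicate 2, Pool 2 replicate 2 or Pool 3 replicate 2, or dCas9-p300(core) IL1RN replicate 1, Pool 2 replicate 2 or Pool 3 replicate 2. The SOX9 call was also lost with quantile normalization (0.19, SE 0.11, limma, adjusted p = 0.227), with guide pool as a covariate (adjusted p = 0.0622, limma), with a filter of 2 libraries for each construct (adjusted p = 0.0501, limma) and with missing peaks set to the lowest enrichment (adjusted p = 0.0529, limma). The PAX8 call was lost without dCas9-p300(core) IL1RN replicate 2 (adjusted p = 0.0506, limma).

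These directions are relative to a shift of all genes. Without scaling, the median promoter had a log2 difference of -0.73, PAX8 of -0.31, SOX9 of -0.47, FOXA1 of -0.76, EMX2 of -0.63 and GATA2 of -1.27. PAX8 and SOX9 thus turned direction, and GATA2 stayed lower.

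**Figure D3:**
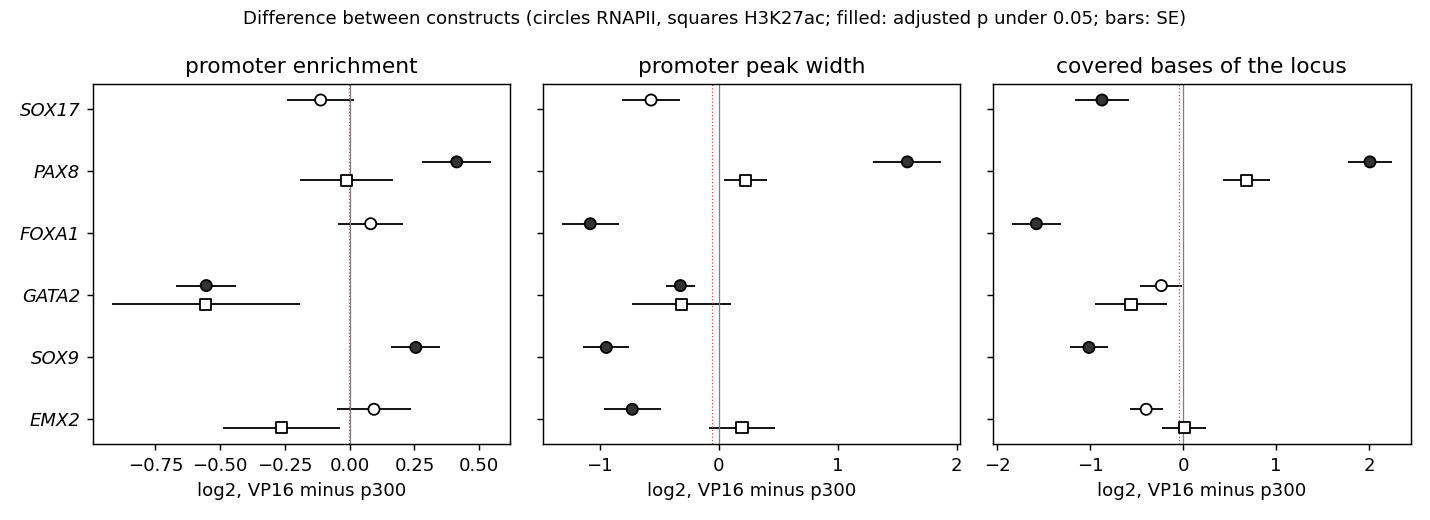
Log2 difference of dCas9-VP16(10x) minus dCas9-p300(core), with its standard error, for promoter enrichment, promoter peak width and covered bases of the locus of each testable gene (limma, filled where the adjusted p was under 0.05). Dotted lines mark the median of all genes, and PAX8 was the one gene to the right in all 3 RNAPII panels with a call in each.

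RNAPII width separated the genes more clearly. Width is the full length of every peak that reaches within 2 kb of any annotated start, so bases farther out count too. PAX8 has 10 annotated starts, some inside the gene body, so its width shares bases with the locus measure below. The RNAPII peaks at the PAX8 starts, so taken, covered more bases with dCas9-VP16(10x), and those of FOXA1, SOX9, EMX2 and GATA2 fewer. PAX8 promoter peaks covered 1341, 7925 and 17967 bp (lowest, median, highest) with dCas9-VP16(10x) and 1446, 2825 and 5984 bp with dCas9-p300(core). Most dCas9-VP16(10x) libraries lay above the whole range of the other construct, but Pool 2 replicate 1 and Pool 3 replicate 1 lay at its low end. After scaling, the log2 difference was 1.58 (SE 0.29, limma, adjusted p = 0.000295).

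FOXA1 peaks covered 173, 754 and 1106 bp with dCas9-VP16(10x) and 764, 1926 and 2034 bp with dCas9-p300(core), in 9 libraries each, a log2 difference of -1.08 (SE 0.24, limma, adjusted p = 0.00170). SOX9 differed by -0.94 (SE 0.19, adjusted p = 0.000851), EMX2 by -0.73 (SE 0.24, adjusted p = 0.0194) and GATA2 by -0.32 (SE 0.12, adjusted p = 0.0397), all by limma. SOX17, at -0.57 (SE 0.24), missed the threshold (limma, adjusted p = 0.0643). Narrower peaks were common, since 25.2% of promoters were called narrower and 16.9% wider (42.1% in all), so 5 calls of 6 testable members stand beside a high background. The GATA2 width call was lost in 10 of the 20 fits without 1 library (dCas9-VP16(10x) Adjacent replicate 2, Pool 1 replicate 2, Pool 2 replicates 1 and 2, Pool 3 replicate 1, and dCas9-p300(core) Adjacent replicates 1 and 2, IL1RN replicate 2, Pool 1 replicate 1 and Pool 3 replicate 2), with limma adjusted p from 0.0531 to 0.0800. SOX17 passed without dCas9-p300(core) IL1RN replicate 1 (adjusted p = 0.00920, limma), the library with its narrowest peak, or without dCas9-VP16(10x) Adjacent replicate 1, Adjacent replicate 2 or Pool 3 replicate 1 (limma adjusted p = 0.0488, 0.0212 and 0.0482).

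Over the whole locus, taken as the gene body with 20 kb on both sides, PAX8 stood apart. This measure was chosen after the data had been seen. RNAPII peaks covered 7111, 20951 and 42982 bp of the PAX8 locus (lowest, median, highest) over the 10 dCas9-VP16(10x) libraries and 3332, 6136.5 and 15044 bp over the 10 dCas9-p300(core) libraries. Only the dCas9-VP16(10x) libraries Pool 2 replicate 1 (7111 bp) and Pool 3 replicate 1 (7421 bp) lay within the range of the other construct. After scaling to the library, the log2 difference was 2.01 (SE 0.23, 4.02-fold, limma, adjusted p = 7.1e-06). Only 10 of the 14536 protein-coding loci tested had a larger difference, and 15.8% were called higher, 22.0% lower and 37.8% in either direction. Without scaling, the split over these loci turned from 2303 higher and 3191 lower to 287 and 3215, and that of promoter width from 2936 and 4383 to 464 and 5158.

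FOXA1, SOX9 and SOX17 went the other way. FOXA1 RNAPII peaks covered 0, 678.5 and 1239 bp with dCas9-VP16(10x) and 0, 2755 and 3738 bp with dCas9-p300(core). The log2 difference over libraries with a peak was -1.58 (SE 0.26, limma, adjusted p = 0.000201). SOX9 covered 226, 624.5 and 1075 bp against 421, 1525 and 2349 bp (log2 -1.01, SE 0.20, limma, adjusted p = 0.000693). SOX17 covered 488, 1451 and 2730 bp against 442, 4564.5 and 5317 bp (log2 -0.87, SE 0.29, limma, adjusted p = 0.0206). GATA2 and EMX2 did not pass, at -0.23 and -0.40 (limma, adjusted p = 0.423 and 0.0798), although EMX2 passed without dCas9-VP16(10x) Adjacent replicate 2 (adjusted p = 0.0303, limma). So 4 of 6 testable members were called, 1 higher and 3 lower.

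Run number moved with construct here, and the part of whatever it marks in the RNAPII differences was not tested. The 7 dCas9-VP16(10x) libraries with a run number covered 7111, 20006 and 30076 bp of the PAX8 locus and the 3 without one 19673, 33595 and 42982 bp. Taken alone against the 10 dCas9-p300(core) libraries, the 7 gave a log2 difference of 1.87 (limma, adjusted p = 6.5e-05) and the 3 gave 2.34 (limma, adjusted p = 0.00104). At the promoter, the same subsets gave 0.52 and 0.16 for PAX8 (limma, adjusted p = 0.00735 and 0.628), -0.60 and -0.44 for GATA2 (adjusted p = 0.000693 and 0.104), 0.27 and 0.22 for SOX9 (adjusted p = 0.0208 and 0.336), and 0.24 and -0.48 for FOXA1 (adjusted p = 0.0295 and 0.0411). SOX17 gave 0.11 with the 7 and was called lower with the 3 (-0.63, SE 0.13, limma, adjusted p = 0.00404). FOXA1 and SOX17 thus went in opposite directions in these subsets. SOX17 was no longer called over the locus with the 7 (-0.64, limma, adjusted p = 0.109), nor SOX9 with the 3 (-0.62, limma, adjusted p = 0.132). In promoter width, the 3 called SOX17 (-1.23, limma, adjusted p = 0.00843) and no longer SOX9 (-0.58, limma, adjusted p = 0.116), and GATA2 was called by neither (limma, adjusted p = 0.0806 and 0.256).

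**Figure D4:**
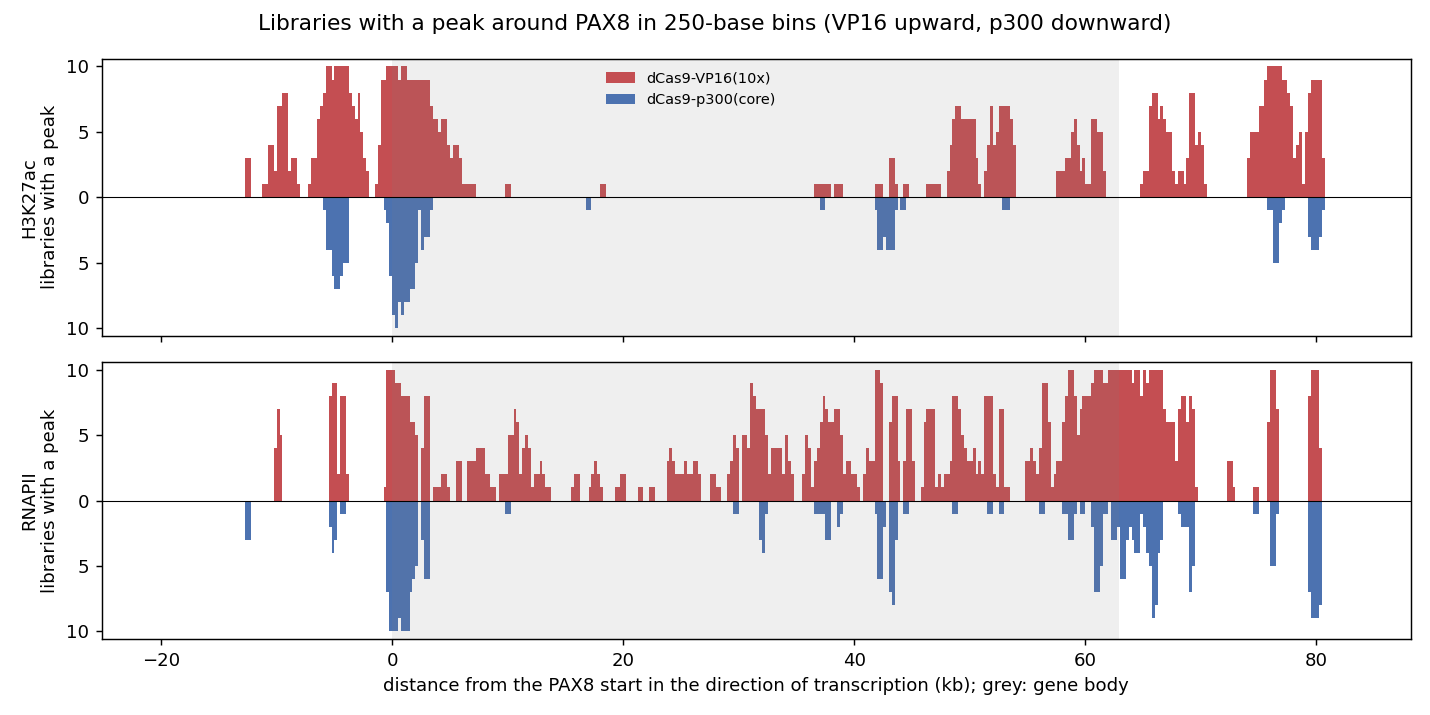
Number of libraries, of 10 for each construct, with a peak in each 250-base bin of the PAX8 locus, by distance in kb downstream from the outermost start, for RNAPII and H3K27ac. RNAPII peaks of dCas9-VP16(10x) libraries filled 121 of 412 bins in at least 5 libraries and those of dCas9-p300(core) libraries 34.

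Along PAX8, both constructs shared the main promoter and parted inside and beyond the gene. In bins of 250 bases, RNAPII was present in at least 5 of 10 libraries in 121 of 412 bins with dCas9-VP16(10x) and in 34 with dCas9-p300(core), and H3K27ac in 97 and 18. These counts, and those at single starts below, were not scaled to list size, which for H3K27ac had medians of 25025 and 6143 peaks. H3K27ac bins were also more numerous with dCas9-VP16(10x) at EMX2 (50 and 19) and SOX17 (28 and 0). RNAPII bins went the other way there, with 17 and 25 at EMX2 and 9 and 22 at SOX17. The main group of PAX8 starts (chr2:114035994-114036498) had RNAPII and H3K27ac in 10 of 10 libraries of both constructs. An internal start at 113978054 had RNAPII in 10 dCas9-VP16(10x) and 3 dCas9-p300(core) libraries and H3K27ac in 7 and 0. Internal starts at 113993020 to 113995085 had RNAPII in 10 and 8, and one at 113999356 in 8 and 4.

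H3K27ac at the PAX8 locus also covered more bases with dCas9-VP16(10x), but the fit over all libraries did not call it. The peaks covered 2997, 21848.5 and 29691 bp with dCas9-VP16(10x) and 1521, 3516 and 5875 bp with dCas9-p300(core). All dCas9-VP16(10x) libraries except Pool 3 replicate 1, the shortest list of that construct, lay above the other construct. The EMX2 locus showed the same separation before scaling, with the same exception. It had 1139, 10604.5 and 11954 bp against 624, 3583 and 6806 bp, and its scaled difference, given below, was not called. After scaling, the log2 difference was 0.68 (SE 0.25, limma, adjusted p = 0.0931), where 6.87% of 6929 loci were called, and it passed without Pool 3 replicate 1 of dCas9-VP16(10x) (0.77, SE 0.25, limma, adjusted p = 0.04998).

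Restricting the comparison to lists of at least 10000 peaks, where the constructs are closer in list size, gave 8597, 21986 and 29691 bp in 9 dCas9-VP16(10x) libraries and 3776, 4764.5 and 5875 bp in 4 dCas9-p300(core) libraries. The log2 difference was 1.49 (SE 0.31, limma, adjusted p = 0.00875), and the number of all loci called in these lists is given below. Within the libraries of the shared run number, coverage was 2997, 13260 and 21711 bp in 5 dCas9-VP16(10x) and 1858, 4155.5 and 5875 bp in 6 dCas9-p300(core) libraries (log2 0.79, limma, adjusted p = 0.370). With run as a covariate the log2 difference was 0.58 (SE 0.15, limma, adjusted p = 0.0276).

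**Figure D5:**
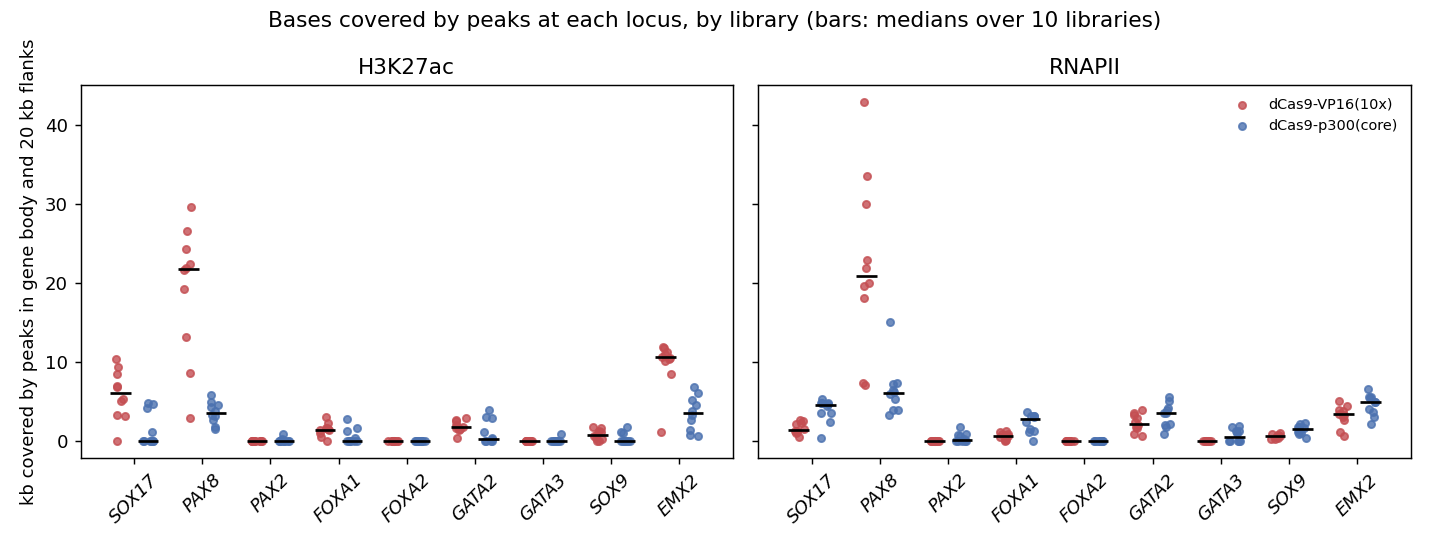
Bases covered by peaks within the gene body plus 20 kb on both sides, for each gene, antibody and library, with the constructs side by side. For PAX8, H3K27ac covered 2997 to 29691 bp with dCas9-VP16(10x) and 1521 to 5875 bp with dCas9-p300(core), and FOXA2 stood at 0 in every library.

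At the promoters themselves, H3K27ac enrichment was called different between constructs for 0 of 5913 genes by limma (0% of promoters), although 839 had an unadjusted p under 0.05. PAX8 differed by -0.01 (SE 0.18, limma, adjusted p = 0.980), GATA2 by -0.55 (SE 0.36, adjusted p = 0.452) and EMX2 by -0.26 (SE 0.22, adjusted p = 0.571), and none of the 3 had an unadjusted p under 0.05. The other 6 members had a peak in too few dCas9-p300(core) libraries to be tested, with 4, 4 and 3 of 10 for SOX17, FOXA1 and SOX9. H3K27ac width gave no call for these 3 genes either (PAX8 0.23, GATA2 -0.31 and EMX2 0.20, limma, adjusted p = 0.494, 0.702 and 0.717), with 5.60% of promoters called. Of the 3 loci, GATA2 and EMX2 differed in H3K27ac coverage by -0.56 and 0.01 (limma, adjusted p = 0.382 and 0.984). With lists of at least 10000 peaks, where 2239 of 13023 loci and 901 of 14183 promoter widths were called, GATA2 was called lower with dCas9-VP16(10x) in coverage (-0.94, SE 0.20, limma, adjusted p = 0.00991) and in width (-0.78, SE 0.19, limma, adjusted p = 0.0310).

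Several sites away from the starts were marked in at least 10 of 20 libraries. PAX8 had 15 such RNAPII segments and 9 for H3K27ac, EMX2 3 and 7, SOX17 3 and 3, and FOXA1 1 for RNAPII, whereas GATA2, SOX9, PAX2, GATA3 and FOXA2 had none. Downstream of PAX8, RNAPII marked chr2:113956178-113957077, which overlaps the neighbouring gene PSD4, and chr2:113970271-113971041, inside PAX8-AS1, in 19 of 20 libraries each. The second holds the PAX8 downstream sequence printed above. Upstream of PAX8, H3K27ac marked chr2:114040398-114041561 in 17 libraries.

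EMX2 had its most frequent distal site downstream of the gene. RNAPII covered chr10:119311113-119312176 in 20 of 20 libraries, around the EMX2 downstream sequence printed above, and H3K27ac covered chr10:119311254-119312420 in 14. At FOXA1, the segment chr14:38057326-38057430 had RNAPII in 1 dCas9-VP16(10x) and 9 dCas9-p300(core) libraries.

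No member tested was called different in promoter enrichment between the IL1RN pool and the other pools, which formed a single group. The test covered 6 members for RNAPII and 3 for H3K27ac (PAX8, GATA2 and EMX2). Single pools were not tested, nor were width, locus coverage or presence between pools. For H3K27ac, the other pools include the Adjacent library that is also labelled with the IL1RN guides. Libraries with the other pools were compared with those with the IL1RN pool within the same fit, to see whether targeting ERBSs or adjacent regions moved genes that no guide addressed. By limma, 0 of 17383 RNAPII promoters and 0 of 5913 H3K27ac promoters were called (0% in both), with 575 and 289 at an unadjusted p under 0.05, none of them a member. The members differed by -0.16 to -0.02 for RNAPII and -0.26 to -0.16 for H3K27ac on the log2 scale, with no adjusted p under 0.988 (limma). The SE was as large as 0.50, for H3K27ac at GATA2.

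PAX8, the member nearest to a target of the control pool, had scaled RNAPII enrichment of 0.860, 1.76 and 2.08 in the 4 IL1RN libraries and 1.06, 1.47 and 2.08 in the 16 others (log2 -0.10, SE 0.17, limma, adjusted p = 0.9997). For H3K27ac it had 0.809, 1.31 and 1.42 against 0.633, 0.959 and 1.67 (log2 -0.23, SE 0.23, limma, adjusted p = 0.988). The ranges overlapped for both antibodies. In RNAPII, the 2 IL1RN libraries of dCas9-VP16(10x) covered 20006 and 18154 bp of the PAX8 locus and those of dCas9-p300(core) 7332 and 5354 bp, so the contrast between constructs was also present with this pool.

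HA is the tag of the dCas9 fusions. No guide addressed the member promoters, and whether HA peaks there mark bound dCas9 was not tested. In 2 of the 7 HA lists, dCas9-VP16(10x) Adjacent replicate 2 (25109 peaks) and dCas9-VP16(10x) ERBS replicate 2 (30740 peaks), 8 of the 9 promoters had a peak, FOXA2 being the exception. Both lists had a peak at most promoters, 67.9% and 69.4% of protein-coding genes. The IL1RN control list had 1 member promoter, that of GATA2 (enrichment 7.00), with 34.5% of protein-coding genes, and the other 4 lists had 0 members with 25.3%, 21.2%, 0.481% and 0.0446%. Among the member promoters, the highest HA enrichment was at FOXA1, 18.6 and 27.8 in the 2 long lists. EMX2 was the one member with an HA peak in its locus in all 5 dCas9-VP16(10x) lists, covering 211 to 5052 bp. Replicate 1 of the ERBS and Adjacent groups had no HA peak at any member promoter, so the replicates of these groups differ for the 8 genes.

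Related genes of the same families were examined next. Of 10 paralogues (SOX7, SOX18, SOX8, SOX10, PAX5, FOXA3, GATA1, GATA4, GATA6 and EMX1), 4 had RNAPII promoter peaks in at least 10 libraries, namely FOXA3 and GATA6 in 20, EMX1 in 11 and PAX5 in 10, and 1 had H3K27ac, FOXA3 in 16. FOXA3 and GATA6, the only paralogues that could be tested, were both lower in RNAPII enrichment with dCas9-VP16(10x) (log2 -0.42, SE 0.14, adjusted p = 0.0346, and -0.88, SE 0.11, adjusted p = 4.6e-05, limma). These differences are relative to the constantly marked promoters and move with run number, as for the members. Of the 17385 promoters tested, 11.2% were called lower and 26.7% in either direction. GATA6, at a scaled level of 0.956, went in the direction of GATA2.

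Of 10 other transcription factor genes of epithelia, 7 had RNAPII in at least 10 libraries and 4 had H3K27ac. GRHL2 and ELF3, which sustain epithelial identity, had both marks in all 20 libraries, as PAX8 and EMX2 did. Of the 6 that could be tested for RNAPII enrichment, 2 were higher with dCas9-VP16(10x), ELF3 (log2 0.89, SE 0.21, limma, adjusted p = 0.00418) and TFAP2A (0.34, SE 0.11, adjusted p = 0.0198), and none was lower. Over the locus, 2 of 7 were higher, GRHL2 (1.01, SE 0.11, limma, adjusted p = 5.0e-06) and ELF3 (1.36, SE 0.32, adjusted p = 0.00290), and 4 were lower. Over all genes, 15.4% of promoters were called higher and 11.2% lower in enrichment, and 15.8% and 22.0% of loci in coverage. The median log2 difference of RNAPII locus coverage was -0.63 over the 6 testable members, -0.45 over 8 paralogues, -0.32 over these 7 genes and 0.73 over the 6 epithelial markers, against -0.04 over all genes.

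Each gene was also set beside the protein-coding gene whose scaled H3K27ac enrichment ran most closely with it over the libraries in which both had a peak, leaving out genes within 100 kb. By Spearman's rho, these were TBC1D9 for SOX17 (0.989, 13 libraries), NOX4 for PAX8 (0.951, 12 libraries), TYRO3 for FOXA1 (0.955, 11 libraries), GIT2 for GATA2 (1, 11 libraries), ZNF639 for SOX9 (0.982, 11 libraries) and CFAP97 for EMX2 (0.982, 11 libraries). The median over all genes compared was 0.37 to 0.58, and each highest value was picked from 8990 to 9724 genes, so these are descriptions only.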

How the data were processed

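Peak lists on hg19, as deposited by the authors, were the starting point. The submitters' processing notes name Bowtie 1.1.2, SAMtools, bedtools and MACS2 2.1.0.20140616. For each peak the deposited lists give a fold enrichment over background, which is a ratio, and the -log10 of its p-value and q-value, the lowest -log10 p being 10.0007, so weaker signal is not listed. Peaks were called per library. A deposited table of normalized signal holds no member gene and was not used.

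Starts were read from GENCODE v44lift37. For each gene and library, the highest enrichment and the summed full length of the peaks that reach within 2 kb of any start were taken. Each was divided by the library's median over promoters with a peak in every library of the antibody. Log2 of these values was modelled with limma 3.58.1 (R 4.3.3), with construct as the one term, for genes with a peak in at least 5 of the 10 libraries of each construct. A library without a peak was missing for that gene. Presence was compared by Fisher's exact test. Benjamini-Hochberg adjustment ran over all genes tested, with calls at 0.05. The same fit was made for covered bases of the locus of protein-coding genes, a measure added after the data were seen. The fits were tested on simulated data. Read depth was not given, so no counting interval was computed.

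All 9 members are named. Of the other lists, genes with a promoter peak in at least 10 libraries of an antibody are named where a result turns on them, and of distal segments at most the 3 covered by most libraries. The members and gene lists were chosen with earlier results of these data known. Alternatives were other windows, thresholds, scalings, filters and covariates, subsets of libraries and leaving out each library. The subset of lists with at least 10000 peaks and the run subsets of RNAPII were chosen after seeing the data.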

Additional observations from a re-analysis of the deposited data

Results flagged for a closer look

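Single libraries far from the rest of their construct were looked for in 75 groups of 4 to 10 libraries, by the gap to the nearest other library as a share of the group's range. Chance marks about 1 in 20 groups, and 9 were marked, each by peaks that covered few bases. All values are log2 of covered bases relative to the library's constantly marked promoters or loci.

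For H3K27ac promoter width, SOX17 stood at -1.45 in dCas9-p300(core) Pool 2 replicate 1, with the other 3 libraries at 0.17 to 0.38, and FOXA1 stood at -1.79 in the same library, with the others at -0.33 to -0.25. FOXA1 stood at -2.47 in dCas9-VP16(10x) Pool 3 replicate 2, where the other 8 libraries lay at -1.26 to -0.36, and its H3K27ac coverage of the locus there was -3.25 against -2.07 to -0.90. EMX2 stood at -0.45 for H3K27ac promoter width in dCas9-VP16(10x) Pool 3 replicate 1, with the other 9 at 1.21 to 2.06, and at -0.22 for the locus, with the others at 0.83 to 1.37.

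For RNAPII, SOX17 stood at -0.66 for promoter width in dCas9-p300(core) IL1RN replicate 1, against 0.59 to 1.00 in the other 9, and at -1.37 for the locus, against 0.61 to 1.32. EMX2 stood at -1.24 for RNAPII promoter width in dCas9-VP16(10x) Pool 2 replicate 1, against 0.15 to 1.54.

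In the HA lists, which no comparison between groups used, dCas9-VP16(10x) Adjacent replicate 2 and dCas9-VP16(10x) ERBS replicate 2 had a peak at 8 member promoters each, against 1 in the IL1RN control list.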

How the results depend on the processing

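The RNAPII differences of PAX8 in width and locus coverage and of FOXA1 and SOX9 in width kept their direction in every alternative run. Without scaling, the median over all genes was -0.73 for RNAPII enrichment (111 genes higher and 13467 lower), -0.33 for its width and -0.32 for its locus coverage, 0.50 for H3K27ac enrichment, 1.02 for H3K27ac width and 1.29 for its locus coverage, against -0.13 to 0.08 with scaling. Genes called rose to 13578 for RNAPII enrichment (from 4634), and for H3K27ac to 188 (from 0), 3820 (from 331) and 4444 (from 476), and members called to 5 for RNAPII enrichment (from 3) and to 2 each for H3K27ac width and locus coverage (from 0).

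For RNAPII enrichment, members called fell from 3 to 2 with quantile normalization, guide pool as a covariate and a filter of 2 libraries. The same fall came with missing peaks at the lowest enrichment. With the dCas9-VP16(10x) libraries without a run number 2 were also called, but these were FOXA1 and SOX17. PAX8, GATA2 and SOX9 were not called there. Members called rose to 4 with the dCas9-VP16(10x) libraries of 1 run number. For width they fell from 5 to 4 with guide pool as a covariate, a -log10 p of at least 20, a peak in every library (which leaves out FOXA1) and both run subsets, and rose to 6 with windows of 5 kb, and for locus coverage they fell from 4 to 3 in both run subsets and with a peak in every library. For H3K27ac, other settings changed the number of members called for locus coverage, to 2 with lists of at least 10000 peaks and to 1 with run as a covariate, for width, to 1 with lists of at least 10000 peaks, and for presence, to 4 among libraries without a run number. In that last setting 9200 of 17530 genes were called. The lists there held 24890 to 32052 peaks for dCas9-VP16(10x) and 1805 to 4346 for dCas9-p300(core). Over fits without 1 library, members called ranged from 1 to 3 for RNAPII enrichment, from 0 to 1 for H3K27ac locus coverage and from 0 to 2 for H3K27ac presence. Genes called for H3K27ac width ranged from 0 to 3820 over the alternatives, for H3K27ac locus coverage from 5 to 4444, for H3K27ac presence from 0 to 9200, and for RNAPII enrichment, width, locus coverage and presence from 2729 to 13578, 4268 to 7912, 3105 to 5786 and 0 to 306. Distal segments numbered 19 for H3K27ac and 22 for RNAPII at 10 libraries, 5 and 9 at 15 libraries, and 46 for RNAPII at 5 libraries.

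Some differences between constructs changed sign, of which only that of FOXA1 with the RNAPII libraries without a run number was called after scaling (adjusted p = 0.0411, limma), and the cause was not tested. For H3K27ac enrichment PAX8 became 0.10 (windows of 5 kb), 0.088 (-log10 p of at least 20), 0.96 (no scaling), 0.0041 (run as a covariate), 0.10 (shared run) and 0.17 (at least 10000 peaks), and ran from -0.089 to 0.060 without 1 library. GATA2 became 0.041 with missing peaks at the lowest enrichment under both filters, 0.032 with run as a covariate and 0.023 in the shared run, and EMX2 became 0.71 without scaling. For H3K27ac width, GATA2 became 0.42 without scaling and EMX2 -0.010 in the shared run. For H3K27ac locus coverage, GATA2 became 0.38 without scaling, and EMX2 became -0.030 with run as a covariate and -0.19 without a run number, and ran from -0.11 to 0.15 without 1 library. For RNAPII enrichment without scaling, PAX8 became -0.31, FOXA1 -0.76, SOX9 -0.47 and EMX2 -0.63. SOX17 became 0.11 with the dCas9-VP16(10x) libraries of 1 run number, and FOXA1 -0.48 and EMX2 -0.26 with those without one.

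For the other pools minus IL1RN, H3K27ac at GATA2 became 0.12 with missing peaks at the lowest enrichment and 0.035 with at least 10000 peaks, and EMX2 became 0.029 with the latter. Without 1 library GATA2 ran from -0.76 to 0.24 and EMX2 from -0.48 to 0.16. For RNAPII, SOX17 became 0.039 and FOXA1 0.034 in 1 run, FOXA1 0.35 with missing peaks at the lowest enrichment, and GATA2 0.034 without scaling. Without 1 library PAX8 ran from -0.42 to 0.23 and GATA2 from -0.16 to 0.14. No member was called in any of these.

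The labels do not say whether replicate numbers pair the libraries. The difference of replicate 1 minus replicate 2 was correlated between groups of construct and pool. For H3K27ac the correlation was -0.49 to 0.92 (median 0.28, over 0.1 in 29 of 45 pairs), so same-numbered libraries tended to deviate together. For RNAPII it was -0.38 to 0.71 (median 0.03, over 0.1 in 12 of 45). In most H3K27ac groups, replicate 1 had the shared run number and replicate 2 had none. With the replicate block, 4798 genes were called for RNAPII enrichment, 7265 for width and 5433 for locus coverage, and 0, 290 and 367 for H3K27ac, and no member changed its call. RNAPII with run as a covariate, or within a run, could not be fitted, since no run held both constructs. The depth of a list limits which promoters appear in it at all, and the 9 genes stand for no others.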
